A study of Homo sapiens with 6 samples.

Results

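AC069513.3 is a long non-coding RNA (lncRNA) assay on a custom RT-qPCR array, and it had the largest difference between the colon cancer line SW480 and its regorafenib-resistant derivative SW480R. It was found by its name in the annotation of the array, where it stands in well B02, and it is 1 of 84 wells that carry a lncRNA name among 96 wells. SW480 is an established human colorectal cancer cell line, and SW480R was obtained from it by stepwise exposure to regorafenib, a multikinase inhibitor, for over 12 months, followed by passages in 0.02 μM regorafenib. Each line was measured in 3 clones, which the labels place at passage 0 for SW480 and at passage 10 for SW480R, while the growth protocol gives more than 20 passages in the drug. Both lines share their origin and medium and differ in drug history and in time in culture together, which cannot be told apart. The study describes the SW480R clones as harvested after the exposure and the array data as coming from independent experiments, but how the SW480 clones were obtained and how clones and experiments correspond was not found in the labels or methods, so the spread between clones may in part be technical. The array holds no marker against which the identity of the line could be checked.

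LncRNAs are transcripts without a long open reading frame. Some of them are the precursors of miRNAs, and such a gene is called the host gene of that miRNA. Others are described as sponges, which hold a miRNA through complementary bases and so keep it from its target mRNAs. The study asked which lncRNAs differ in resistant cells and followed 1 of them, named MIR570MG in its text, together with miR-145 as the miRNA it binds. The paper reports MIR570MG as raised in resistant cells on its lncRNA array, and again by qRT-PCR against the parental cells.

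What the annotation allows to be said about AC069513.3 is limited. The array lists the gene identifier ENSG00000242086, no transcript and no chromosome position. It was the only lncRNA assay without a transcript, since the other 83 have one, and its gene identifier stands in 1 well. The lack of a position is common on the array, since only 21 of the 84 lncRNA assays have one listed. The name has the form of a genomic clone followed by a gene number. None of the 84 lncRNA assays is listed as MIR570MG, MIR570HG or LINC00969. The RefSeq gene table of GRCh38.p14 has no entry named AC069513.3 or MIR570MG and holds no Ensembl identifiers, so it could not be searched for this assay by identifier. It does hold an lncRNA gene MIR570HG with the synonym LINC00969, which differs from the name in the study by a single letter, and the miRNA gene MIR570 lies within its interval. Whether well B02 measured MIR570MG was therefore not settled by these tables, and each value is given under the listed name.
The mature miRNAs of MIR570 are shown because the name MIR570MG refers to it, and those of miR-145 because the study followed that miRNA. The sequences come from RefSeq (GRCh38.p14), with the seed (bases 2 to 8) in capitals, and none of them was measured on the array.
hsa-miR-570-5p: aAAGGUAAuugcaguuuuuccc
hsa-miR-570-3p: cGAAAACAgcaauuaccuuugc
hsa-miR-145-5p: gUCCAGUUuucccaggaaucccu
hsa-miR-145-3p: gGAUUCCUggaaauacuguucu
The 4 miRNAs have 4 different seeds. No transcript sequence of AC069513.3 was at hand, so no site for any of these seeds was looked for in it.

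The level of AC069513.3 was read as the threshold cycle (Ct), the PCR cycle at which the fluorescence passes the detection threshold, so that a lower Ct stands for more template. In SW480 the raw Ct of AC069513.3 was 24.21, 24.66 and 24.83 cycles in clones 1, 2 and 3. In SW480R it was 18.18, 18.56 and 18.69 cycles. Every SW480R clone thus lay above every SW480 clone in level, with 5.52 cycles between the nearest clones of both lines, while the clones of a line spanned 0.62 cycles in SW480 and 0.51 cycles in SW480R. The span of the Ct over the 6 clones was 6.65 cycles for AC069513.3, against a median of 0.815 cycles over the 84 lncRNA assays and 3.8 cycles for the next widest assay.

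**Figure D1:**
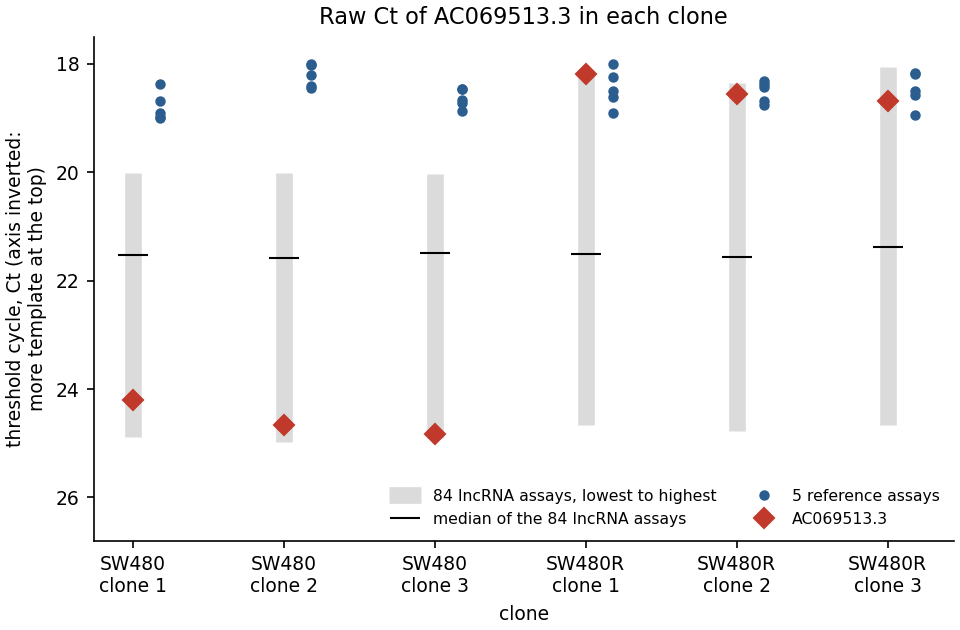
Raw Ct of AC069513.3 (red diamonds) in each of the 6 clones on an inverted axis in cycles, with the Ct of the 5 reference assays (blue points), the range of the 84 lncRNA assays (grey bars) and their median (black lines). AC069513.3 lay between 24.21 and 24.83 cycles in SW480, near the late end of the lncRNA assays, and between 18.18 and 18.69 cycles in SW480R, among the reference assays.

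The deposited normalized values are ΔCt, the Ct of a well minus that of a reference, and they run in the same reversed direction. The ΔCt of AC069513.3 was 5.70, 6.14 and 6.31 cycles in SW480 clones 1, 2 and 3, and -0.33, 0.05 and 0.17 cycles in the SW480R clones. SW480 had a mean of 6.05 ± 0.32 cycles (SD, n = 3), and SW480R had -0.04 ± 0.26 cycles (SD, n = 3). A ΔCt near 0 means that the assay came up with the reference assays, and the 3 SW480R values lie on both sides of 0. The log2 fold change, SW480R over SW480, was 6.09 with a standard error of 0.24, which is a 67.9-fold difference. Because AC069513.3 was chosen for this difference, the values are a description and no test of them is given. Over the 9 pairs of an SW480R clone with an SW480 clone, the log2 difference ranged from 5.52 to 6.64, or from 46.0-fold to 99.9-fold.
On the linear scale, a ΔCt of AC069513.3 corresponds to 1.93%, 1.41% and 1.26% of the reference level in SW480 clones 1, 2 and 3. The corresponding shares were 126%, 96.7% and 88.7% in SW480R clones 1, 2 and 3. The RNA therefore went from the level of 1.53% ± 0.35 (SD, n = 3) of the reference in the parental line to 104% ± 19.4 (SD, n = 3) in the resistant line, if all assays double their product in each cycle. The efficiency of this assay is not given in the sources used here. With an efficiency of 0.9 the log2 fold change would be 5.64, a 49.7-fold difference, and with 0.8 it would be 5.16, a 35.8-fold difference.

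The order of the levels shows how far AC069513.3 moved within the panel. Levels were ranked from the highest, that is from the lowest ΔCt, and since assays may differ in efficiency a rank orders cycles and not molecules. In SW480 AC069513.3 ranked 82 of 84 on the mean ΔCt, and in the single clones it ranked 82, 82 and 84. In SW480R it ranked 3 of 84, and in the single clones it ranked 1, 3 and 3. On the raw Ct its ranks were 81, 83 and 83 in SW480 and 1, 3 and 3 in SW480R. It climbed 79 places between the lines, and the next largest climb was 52 places, of lnc-PSMC5-1.
In SW480 it stood in a low set of 6 lncRNA assays, separated from the next assay above, lnc-CCZ1B-2, by 1.48 cycles of mean ΔCt. The 2 assays below it were lnc-EXO1-1, with a ΔCt of 6.14 ± 0.04 cycles (SD, n = 3), and LOC648987 in well G04, with 6.18 ± 0.52 cycles (SD, n = 3). The assay next above it was lnc-TSN-9, with a ΔCt of 5.88 ± 0.48 cycles (SD, n = 3). The clones of each of the 5 neighbours, with RP11-524H19.2 and ERVK3-1 as the others, overlapped those of AC069513.3, so their order in SW480 is not resolved beyond the spread. The deposited ΔCt of the 5 neighbours used each clone's own reference mean, whereas that of AC069513.3 used a constant. Their order and SDs of ΔCt are therefore on unlike scales. In raw Ct, lnc-EXO1-1 had an SD of 0.29 cycles in SW480, and AC069513.3 again ranked 82 of 84 on the mean. These 5 assays kept a low level in SW480R, where they ranked 80 to 84, and their log2 fold changes lay between -0.30 and 0.41. They stand side by side on the plate, in wells G01 to G05.
In SW480R AC069513.3 stood in a high set of 3 assays with H19 and KCNQ1OT1, which are lncRNAs transcribed from imprinted loci. The ΔCt in SW480R was -0.23 ± 0.21 cycles (SD, n = 3) for H19 and -0.22 ± 0.14 cycles (SD, n = 3) for KCNQ1OT1. The clones of both overlapped those of AC069513.3, and the next assay, lnc-PSMC5-1, came 1.67 cycles of mean ΔCt later. In SW480 the same 3 assays were apart, since H19 ranked 44 and KCNQ1OT1 ranked 36 there.

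**Figure D2:**
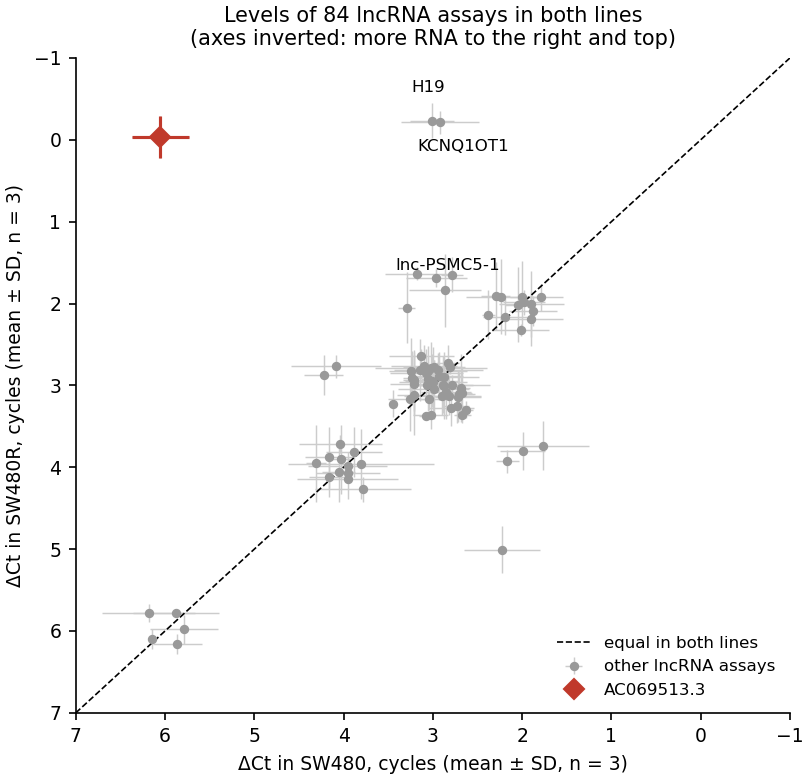
Mean ΔCt of the 84 lncRNA assays in SW480 (horizontal axis) and SW480R (vertical axis) in cycles, with SD bars over 3 clones, both axes inverted so that more RNA lies to the right and top. AC069513.3 (red diamond) lay at 6.05 cycles in SW480 and -0.04 cycles in SW480R, far from the line of equal levels, and at the height of H19 and KCNQ1OT1.

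Across the panel, the log2 fold change of AC069513.3 ranked 1 of 84. The other 83 lncRNA assays had log2 fold changes between -2.78 and 3.24, with a median of 0.04, and 70 of them lay within 1 of no change on the log2 scale. AC069513.3 belonged to the 12 assays in which all SW480R clones had a higher level than all SW480 clones, a background of 14.3% of the lncRNA assays, and nothing is read from this count since the assay was chosen on the same contrast. By limma with Benjamini-Hochberg adjustment over the 84 lncRNA assays, 11.9% (10 assays) were higher in SW480R, a count given as background of the panel only.
The next largest change was that of H19, at 3.24 on the log2 scale (standard error 0.19). The difference between the 2 changes was 2.85 on the log2 scale, with a standard error of 0.40. Seen within each clone, the level of AC069513.3 relative to H19 was -2.44, -3.13 and -3.56 on the log2 scale in SW480 clones 1, 2 and 3. In SW480R the same log2 ratio was 0.15, -0.10 and -0.64. AC069513.3 thus came up later than H19 in all SW480 clones and less than 1 cycle before or after it in the SW480R clones.

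**Figure D3:**
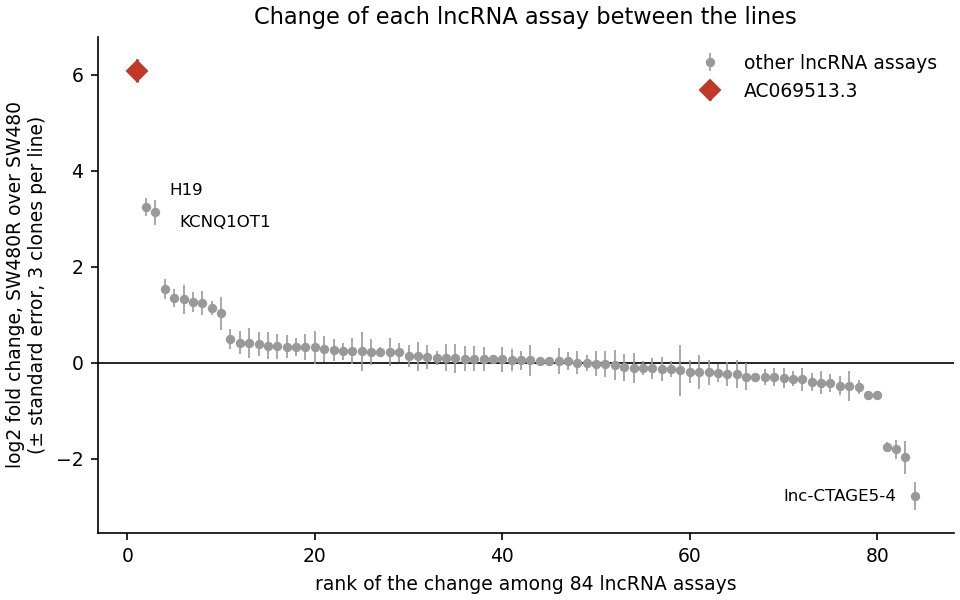
Log2 fold change, SW480R over SW480, of the 84 lncRNA assays in the order of their change, with the standard error over 3 clones per line. AC069513.3 (red diamond) stood at 6.09, H19 and KCNQ1OT1 followed at 3.24 and 3.14, and the other assays lay between -2.78 and 1.54.

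The assays with the most similar pattern were taken by the root mean square difference from AC069513.3 over the 6 clones, after each assay's own mean was subtracted. H19 was nearest at 1.48 cycles, KCNQ1OT1 followed at 1.55 cycles and lnc-PSMC5-1 at 2.31 cycles. Between groups of 3 clones such a distance follows mainly the gap in log2 fold change, so its size and order reflect the choice of the most raised assay. The log2 fold change was 3.14 for KCNQ1OT1 (standard error 0.26), and 1.54 for lnc-PSMC5-1 (standard error 0.21), whose name follows a protein-coding gene.
Other wells with a clone-based name were taken by prefix (AC, AL, AP, CTD-, CTC-, CTB-, CTA-, or RP with digits). They numbered 37, with some names listed in several wells. Their log2 fold changes lay between -0.67, for CTC-459F4.3 in well D06, and 1.35, for CTD-2201E18.3 in well B03, with a median of 0.03. In 4 of these 37 assays (10.8%) all SW480R clones lay above all SW480 clones, beside 14.3% of all lncRNA assays. Among the 10 others whose name starts with AC, the log2 fold changes lay between -0.51 and 1.14, the latter for AC068039.4.

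The place of AC069513.3 on the plate was described as well, because every array had the same layout and AC069513.3 a single fixed well. Of the 8 wells around B02, 5 (62.5%) held an assay in which all SW480R clones lay above all SW480 clones, beside 14.3% of all lncRNA assays. These were H19 in A01, KCNQ1OT1 in A02, CTD-2201E18.3 in B03, lnc-PSMC5-1 in C02 and AC068039.4 in C03, with log2 fold changes of 3.24, 3.14, 1.35, 1.54 and 1.14. The other 3 were AC073626.2 in A03, RP11-504P24.9 in B01 and RP11-539L10.3 in C01, with log2 fold changes of 0.10, 0.09 and 0.14. The median over the 8 wells was 1.24, against 0.04 over all lncRNA assays. The assays of the high set in SW480R thus stand in adjoining wells, A01, A02 and B02. Other runs of wells were alike too. The level neighbours of AC069513.3 in SW480 fill wells G01 to G05. Wells G09 to G12 held the assays that fell most, with log2 fold changes of -1.97, -1.76, -2.78 and -1.80. The part of the plate position in these levels and in the difference of AC069513.3 was not tested.
The wells that flank AC069513.3 in row B repeat transcripts from the end of row A. RP11-504P24.9, CTD-2201E18.3 and lnc-ZXDB-1 stand in wells A10, A11 and A12, and the same transcripts stand again in the same order in wells B01, B03 and B04, with AC069513.3 between them in B02.
RP11-504P24.9 had log2 fold changes of -0.21 (standard error 0.26) in A10 and 0.09 (standard error 0.30) in B01. CTD-2201E18.3 had 0.23 (standard error 0.27) in A11 and 1.35 (standard error 0.19) in B03, and another transcript of that gene, in well F06, had -0.13 (standard error 0.25). For lnc-ZXDB-1 they were -0.10 (standard error 0.28) in A12 and 1.32 (standard error 0.30) in B04.
In B03 and B04, to the right of AC069513.3, all SW480R clones thus lay above all SW480 clones, and in wells A10, A11, A12, B01 and F06 the lines overlapped. Wells that share a name differed elsewhere on the plate as well. SVIL-AS1 had log2 fold changes of 1.27 in E08, 0.07 in F10 and -1.97 in G09. FAM95B1 had -0.11 in D01, 0.22 in D05 and -0.69 in E05. CTC-459F4.3 had -0.01 in D03 and -0.67 in D06, and LOC648987 had -0.24 in F09 and 0.41 in G04. AC069513.3 itself has no second well with which its value could be compared.

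**Figure D4:**
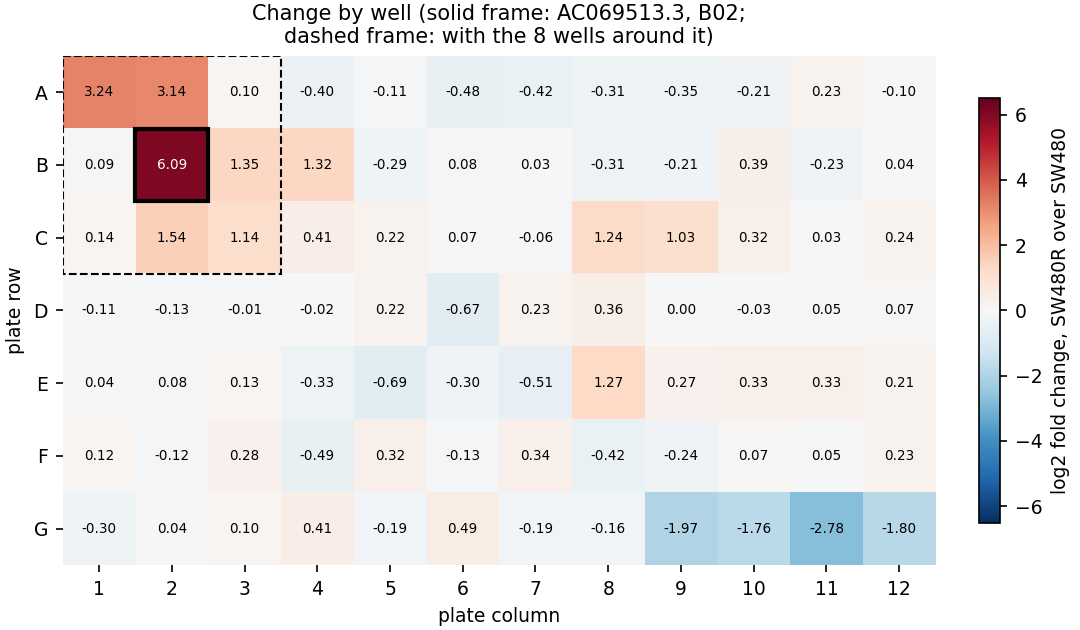
Log2 fold change, SW480R over SW480, of the 84 lncRNA assays by plate row and column, with AC069513.3 in the solid frame and the 8 wells around it in the dashed frame. AC069513.3 had 6.09, and 5 of the 8 wells around it had values between 1.14 and 3.24.

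The difference of AC069513.3 was set beside the wells that took no part in its choice. The 5 references, which are the housekeeping genes ACTB, B2M, GAPDH, HPRT1 and RPLP0, came up between 18.01 and 18.94 cycles in SW480R, and the Ct of AC069513.3 fell within this range there. In SW480 the earliest Ct of AC069513.3 was 5.21 cycles later than the latest reference. The mean of the 5 was 18.55 ± 0.29 cycles (SD, n = 3) in the parental clones and 18.48 ± 0.03 cycles (SD, n = 3) in the resistant clones, a difference of -0.068 cycles (two-sided exact permutation P = 0.7). Of the single reference assays GAPDH differed most, with a change of -0.42 cycles (two-sided exact permutation P = 0.1, adjusted P = 0.5 over the 5), and 3 clones against 3 allow no P below 0.1. The others differed by -0.16 to 0.13 cycles.
The genomic DNA control came up 10.26 to 11.31 cycles after AC069513.3 in the SW480 clones and 16.36 to 17.79 cycles after it in the SW480R clones. It differed between the lines by 0.18 cycles (exact permutation P = 0.7). The mean of the 3 reverse transcription controls differed by -0.158 cycles (exact permutation P = 0.5) and that of the 3 positive PCR controls by -0.121 cycles (exact permutation P = 0.2). Each of these differences was under 0.5 cycles, whereas AC069513.3 differed by 6.09 cycles of raw Ct.

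In the deposited ΔCt, in which assays differ in the reference subtracted, the spread of AC069513.3 between clones was ordinary for the panel. Its SD of ΔCt ranked 33 of 84 in SW480, where the median SD was 0.27 cycles, and 39 of 84 in SW480R, where the median was 0.24 cycles. All its Ct lay within a single whole cycle in each line, 24 in SW480 and 18 in SW480R, as did those of 190 of the 192 groups of 3 clones on the array. The origin of this whole-cycle form was not tested, and the standard errors rest on the same spread.
The deposited ΔCt of AC069513.3 equals the Ct minus 18.51 or 18.52 cycles in every clone, so the references of the single clones did not enter it. The same holds for 63 of the 84 lncRNA assays, to within 0.02 cycles, and in the other 21 the authors subtracted a clone's own reference mean, between 18.22 and 18.79 cycles. With that own mean as the reference, AC069513.3 had 5.42, 6.44 and 6.20 cycles in SW480 clones 1, 2 and 3 and -0.28, 0.05 and 0.22 cycles in the SW480R clones. The log2 fold change was then 6.02 with a standard error of 0.34. The SD in SW480 rose from 0.32 to 0.53 cycles, and that in SW480R was 0.25 cycles.
In the deposited ΔCt, the log2 differences of clones with the same number were 6.03, 6.09 and 6.14 for numbers 1, 2 and 3. Their SD was 0.058, closer together than the 9 pairs in all. With each clone's own reference mean, the same-number differences lay further apart. In the deposited ΔCt, clones of the same number deviated the same way in this assay. Clone 1 had a level above the mean of the line by 0.35 in SW480 and 0.29 in SW480R. Clone 3 lay below it, by values of -0.26 and -0.21. Over the 84 lncRNA assays, deviations of same-numbered clones correlated at 0.0016, -0.22 and 0.14, which cannot decide whether the numbers pair the clones.

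**Figure D5:**
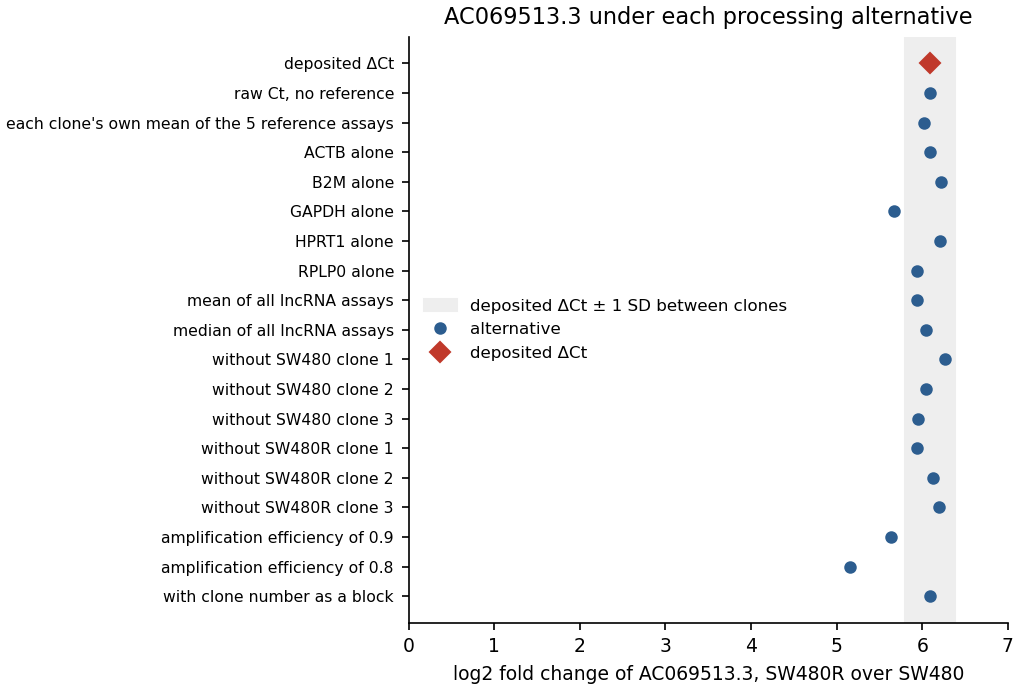
Log2 fold change of AC069513.3, SW480R over SW480, with the deposited ΔCt (red diamond) and under each of 18 alternatives (blue points), with a grey band of 1 SD between clones around the deposited value. The alternatives lay between 5.16 and 6.26, and GAPDH alone and both lower efficiencies fell outside the band.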

How the data were processed

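RNA of 3 SW480 and 3 SW480R clones was measured on 96-well RT-qPCR arrays with 40 cycles. The authors deposited Ct and ΔCt. The ΔCt are score values that the authors normalized before deposit, by subtracting a reference value from the Ct of each well. They were used as deposited, and their differences were read on the log2 scale. Per the paper's methods the authors used the array maker's GeneGlobe tool (version not given in the sources used here). A deposited table of 3 fold-change columns, the authors' own comparison of SW480R with SW480, was not used. No depth applies, so the number of clones limits the precision.

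Groups and clone numbers came from the labels. Log2 fold changes are differences of mean sign-reversed ΔCt, with standard errors from the SDs of both lines. The panel was fitted with limma 3.58.1 in R 4.3.3 (lmFit, eBayes, cell line as the only term, adjusted P under 0.05). The fit was tried on simulated data with normal noise of equal spread in every assay, which the real panel need not share. Reference and control wells were compared by two-sided exact permutation tests in Python 3.11.15.

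AC069513.3, the lists and the rules for named assays (level neighbours, surrounding wells, clone-based names and the 3 most similar patterns) were chosen with earlier results of these data known. The repeated transcripts, lnc-ZXDB-1, the other wells that share a name and the wells of row G set beside plate position were added after their values were seen. Alternatives were other references, leaving out each clone, amplification efficiency, a linear scale, unshared spread and the clone number as a block. Deviations of same-numbered clones correlated over the 84 assays at 0.0016, -0.22 and 0.14. The clones were taken as unpaired, but these correlations cannot decide whether the numbers pair them.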

Additional observations from a re-analysis of the deposited data

How the results depend on the processing

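The log2 fold change of AC069513.3 kept its direction under all 18 alternatives and its rank of 1 of 84 under the 15 in which the whole panel was recomputed. Of these, 9 changed or dropped the reference and subtracted the same value from every assay of a clone. By construction those 9 give the same ranks as each other, so they are not separate checks of the rank. The log2 fold change moved by less than the SD between clones under 15 of the 18. It was 5.67 with GAPDH alone as the reference, 5.64 with an efficiency of 0.9 and 5.16 with an efficiency of 0.8, all by construction, since GAPDH itself differed by -0.42 cycles and a lower efficiency shrinks each cycle. Leaving out each clone in turn gave log2 fold changes from 5.94 to 6.26, ranks from 82 to 83 of 84 in SW480 and ranks from 1 to 3 of 84 in SW480R, where the rank of 1 came without SW480R clone 3. The count of assays with all SW480R clones above all SW480 clones was 12, from 7 (GAPDH alone) to 14 (raw Ct) with other references and from 12 to 18 when a clone was left out, with 18 without SW480 clone 1, so the background of 14.3% moves with these choices. The cause of the changes with the reference was not tested, and fewer clones overlap less often by construction. The number of assays higher by limma stayed between 8 and 10. With a replicate block for the clone number, 10 assays were higher by limma, as without the block. The log2 fold change stayed at 6.09 by construction, since each clone number occurs once in each line. The value rests on 3 clones per line, 1 well each and an amplification efficiency that was not measured.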
